A study of Rattus norvegicus with 16 samples.

Results

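The region described here is a stretch of the rat genome (build rn6), bases 34600001 to 34700000 of chromosome 11 read on the plus strand, in which protein-protected sites (PPS) lie densely. Its members were chosen by measured values, namely by position: every PPS on that strand whose midpoint fell in this window of 100 kb was taken, and the window had been picked for its large number of PPS. It held 261 PPS of the 329742 in the series and of the 4487 on the plus strand of chromosome 11. The number of PPS in the window is therefore a description and not a result.

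The PPS came from protein interaction profile sequencing (PIP-seq) of primary cortical neurons grown from embryonic day 18 Sprague–Dawley rats. The control cultures received no treatment, and the others received 10 µM NMDA, the compound N-methyl-D-aspartate, which activates a class of glutamate receptors and is toxic to neurons in excess. The labels allow cultures of 15 or 21 days in vitro and exposures of 4 or 24 hours without saying which applies here. The labels name no transgene or mutation in either group. Their extraction text also mentions nuclei purified from tissue, which is not how cultured neurons are described elsewhere in the labels, so it is open whether the RNA was that of nuclei or of whole cells. Each group had replicates numbered 2 and 3, with 4 libraries per replicate and 16 libraries in all, and each replicate was deposited as 1 list of PPS. Nothing in the labels says that the replicates were separate cultures, so p-values measure the spread between these lists only, which may be technical. With 2 lists per group the smallest two-sided exact permutation p is 0.333.

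In PIP-seq, crosslinked RNA is digested with an RNase either while its proteins are in place or after they have been digested away, and stretches that resist the RNase only while protein is present are called protected. One RNase cuts single-stranded RNA (ssRNase) and the other cuts paired RNA (dsRNase), so a protected stretch found with ssRNase was otherwise unpaired and one found with dsRNase was otherwise paired. RNA-binding proteins cover neuronal transcripts from transcription and splicing through to transport and decay, and introns as well as mature sequence can carry them. PPS were assigned to no gene here, since no rn6 annotation was used, and no sequence of the region is shown for the same reason. For the same reason the identity of the cells could not be checked against marker genes.

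The 4 lists held 97311, 66261, 85378 and 80792 PPS in control replicates 2 and 3 and NMDA replicates 2 and 3, the order kept below. The peak names carry running numbers that rose with position throughout the hotspot in every list. Read numbers do not accompany the lists, so sequencing depth is unknown. Pairs of lists shared between 184 and 15915 PPS with identical coordinates over the whole series. The most were shared by NMDA replicate 3 with control replicate 2 (15915, 19.7% of the smaller list) and with control replicate 3 (11966, 18.1%). NMDA replicate 2 shared 1929 and 2588 with the same control lists. The control lists shared 184 with each other, and the NMDA lists 1495. On the plus strand of chromosome 11 pairs shared only between 1 and 12. The peaks of that strand followed those of the same strand in the other lists, with mean correlations between 0.617 and 0.749 over bins of 10 kb. Totals of whole lists thus contain PPS that recur in other lists. The main hotspot values scaled to them are given together with values scaled to chromosome 11.

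The hotspot was the fullest 100 kb window of its chromosome strand in every list. The control lists held 64 and 48 PPS there, and the NMDA lists held 65 and 84. These were 5.96%, 4.38%, 5.79% and 7.04% of all PPS on the plus strand of chromosome 11. Among all stranded windows of a list it ranked 57, 30, 43 and 19. The opposite strand of the same 100 kb held 0 PPS in all 4 lists, so protection in this window was read on the plus strand alone.

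The flanking 1 Mb on each side held 268 PPS on the plus strand in 20 windows of 100 kb, which is 63, 62, 68 and 75 per list. The flanks were unevenly filled: 13 of the 20 windows held none, and the fullest held 83 over the 4 lists. Of the flanking PPS, 55 lay before the hotspot and 213 after it, and all 213 lay within 300 kb of its end. The hotspot therefore stood at the upstream side of a filled stretch of about 400 kb, and the 5 windows just before it held few PPS.

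**Figure D1:**
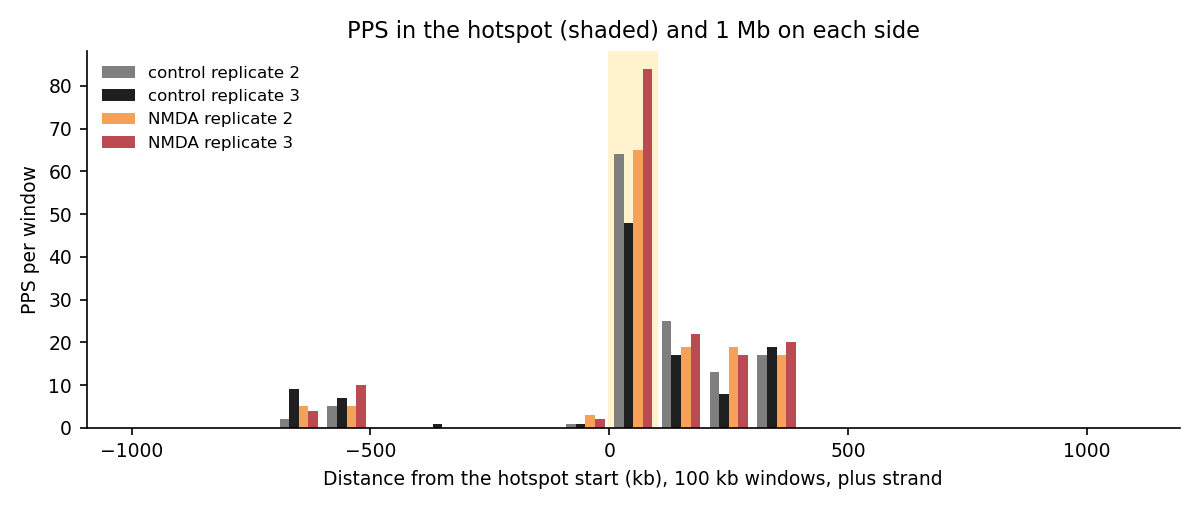
PPS per 100 kb window on the plus strand (vertical axis) against distance from the hotspot start in kb (horizontal axis), with 1 bar per list and the hotspot shaded. The hotspot held 48 to 84 PPS per list, and summed over the 4 lists the 3 windows after it were the next fullest.

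Its edges were those of the selection and, on the upstream side, nearly those of the PPS themselves. The last PPS before the window had its midpoint 1.62, 0.14, 0.14 and 0.34 kb ahead of the hotspot start in the 4 lists, and the first inside lay 1.72, 0.78, 1.63 and 0.76 kb past it. The PPS just outside in control replicate 2 covered 34598348 to 34598408 with a score of 7.34, and the one just inside covered 34601696 to 34601739 with a score of 8.35. On the downstream side the last PPS inside had its midpoint 95.6, 95.6, 94.2 and 95.6 kb from the start, and the next ones were at 119, 117, 119 and 119 kb. The window thus closed in an empty stretch.

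Inside the hotspot the PPS formed a long stretch over the first 70 kb, an empty gap, and a compact cluster near the end. Of the 20 steps of 5 kb, 16 held at least 1 PPS, 13 held one in all 4 lists, and 4 held none. The empty steps ran from 34670001 to 34690000. Over all lists the gap reached from 34668256 to 34693284, a length of 25029 bp, and in NMDA replicate 2 it opened already at 34664418 and spanned 28867 bp. Every list thus lacked PPS over the same 25 kb.

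The fullest step was 34655001 to 34660000, with 8, 8, 11 and 10 PPS. The next was 34610001 to 34615000, with 8, 6, 6 and 6. The third was 34625001 to 34630000, with 5, 6, 7 and 4. In each of these steps the lists differed by less than a factor of 2. Among the steps with PPS, only 34615001 to 34620000 held none in the control lists, with 0, 0, 4 and 3 PPS. All 7 were from dsRNase, and each formed a site of its own. The 4 PPS of NMDA replicate 2 lay at percentile 25.6 and the 3 of NMDA replicate 3 at 6.60, 6.60 and 49.2. The step was picked after its values were seen. It held fewer than the 8 PPS required for the main test of steps, so it was not part of that test.

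**Figure D2:**
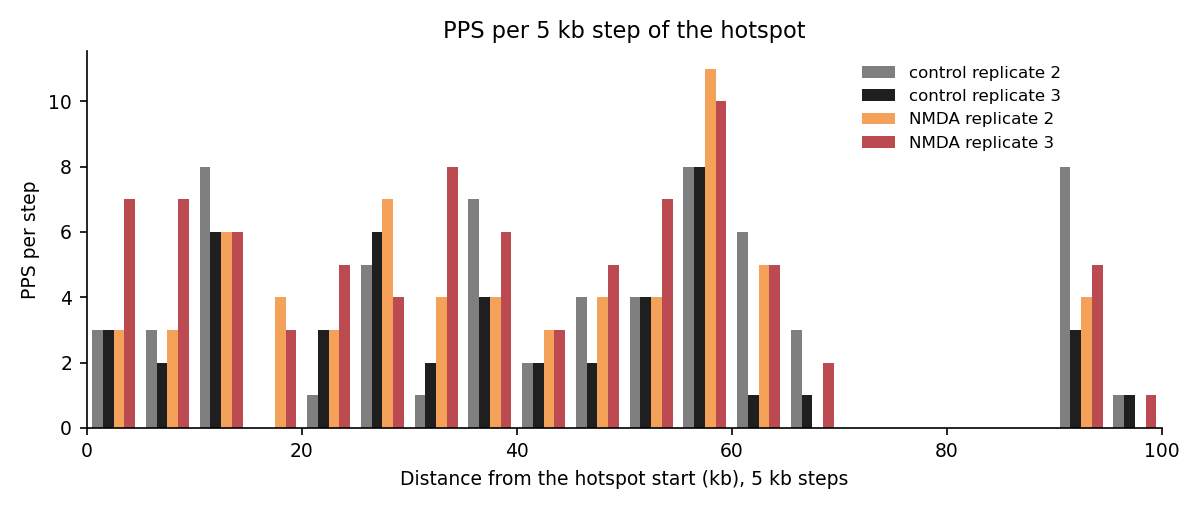
PPS per 5 kb step (vertical axis) along the hotspot, as distance from its start in kb (horizontal axis), with 1 bar per list. The step from 55 to 60 kb held 8 to 11 PPS per list, and the steps from 70 to 90 kb held none.

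Neighbouring PPS of a list lay closer together than in the flanks. The median gap between them was 576, 1045, 770 and 485 bp, against 831, 2118, 1495 and 1138 bp in the flanks. Gaps under 100 bp numbered 20, 6, 8 and 18, so that pairs and short runs of PPS nearly touched. Since the window was picked for its density, the closer spacing follows from the selection and was not tested.

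PPS covered 4217, 2171, 3832 and 5522 bp of the 100 kb, or 4.22%, 2.17%, 3.83% and 5.52%. These shares are over the whole window, its empty gap included. Taking all lists together, 9494 bp were covered by at least 1 list, of which 5057 bp were covered in 1 list, 2839 in 2, 1385 in 3 and 213 in all 4.

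The PPS themselves were short. Lengths ran from 6 to 296 bp with a median of 52 bp: 32 PPS were under 30 bp, 181 were at least 30 but under 80 bp, 40 were at least 80 but under 150 bp, and 8 reached 150 bp or more. A PPS can join several peaks, and 224 of the 261 (85.8%) held 1 peak, 31 held 2 and 5 held 3. The 37 PPS that joined peaks of both RNases had a median length of 96 bp. The longest PPS, in NMDA replicate 3, covered 34694013 to 34694308 (296 bp) with peaks of both RNases and a score of 25.16, and the next longest, 206 and 204 bp, came from the same list.

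Median length of PPS with 1 peak was 54, 41.5, 57.5 and 50 bp in the hotspot and 53, 45, 47 and 51 bp in the flanks. The difference, hotspot minus flanks, was 1.75 ± 6.12 bp (SD, n = 4 lists), positive in 2 of 4 lists (exact sign-flip permutation test over lists, two-sided p = 0.875, where the smallest p possible is 0.125). The hotspot and its flanks did not differ in length beyond the spread between lists.

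The score deposited with each peak has no stated scale, so lists were compared only by its rank within its own list, where 100 is the highest percentile, and scores printed as deposited identify the PPS. Mean percentiles of hotspot PPS were 58.4, 38.5, 52.3 and 55.6, where the mean over a whole list is 50, so control replicate 3 lay below that mean and the other lists above it. They differed from the flanks by 2.71, -6.80, 7.32 and 1.18 points, a mean of 1.11 ± 5.88 (SD, n = 4 lists, exact sign-flip permutation p = 0.625). The hotspot and its flanks did not differ in score percentile beyond the spread between lists. The member with the highest percentile, with a deposited score of 75.63, lay at 34651116 to 34651236 in NMDA replicate 3, and control replicate 2 held a PPS with the same first and last base at percentile 66.1.

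Peaks from dsRNase outnumbered those from ssRNase. The 261 PPS were built from 305 peaks, 99 of ssRNase and 206 of dsRNase. The ssRNase share of peaks was 46.2%, 36.5%, 15.3% and 32.0% in the 4 lists, against 45.2%, 50.0%, 15.1% and 47.1% in the flanks. The share in the hotspot was lower by 13.5 and 15.1 points in both lists of replicate number 3 and nearly equal in the other lists. The mean difference was -6.85 ± 8.61 points (SD, n = 4 lists, exact sign-flip permutation p = 0.5).

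The balance of the RNases varied along the hotspot. The step at 34610001 to 34615000 held 2 ssRNase and 25 dsRNase peaks, the fullest step at 34655001 to 34660000 held 17 and 31, and the step at 34690001 to 34695000 held 20 and 8. For a description, the filled part was divided into the first 35 kb, the part from 35 to 70 kb and the last 10 kb, with limits set after the positions had been seen, and no test was made. In the first 35 kb 11 of 117 peaks (9.40%) came from ssRNase, and the shares by list were 9.09%, 30.4%, 3.23% and 2.44%. From 35 to 70 kb 65 of 155 peaks (41.9%) did, with 54.5%, 37.5%, 17.1% and 50.0% by list. In the last 10 kb 23 of 33 peaks (69.7%) did, with 83.3%, 60.0%, 66.7% and 60.0% by list. In all 4 lists the ssRNase share was lowest in the first stretch and highest in the last, so the upstream part was protected mainly against the enzyme that cuts paired RNA and the end cluster mainly against the one that cuts unpaired RNA.

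Scores followed the same order along the region. The mean score percentile was 41.4 in the first 35 kb, 57.0 from 35 to 70 kb and 80.4 in the last 10 kb. The median length was 50 bp in both of the longer stretches and 84 bp in the last 10 kb.

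**Figure D3:**
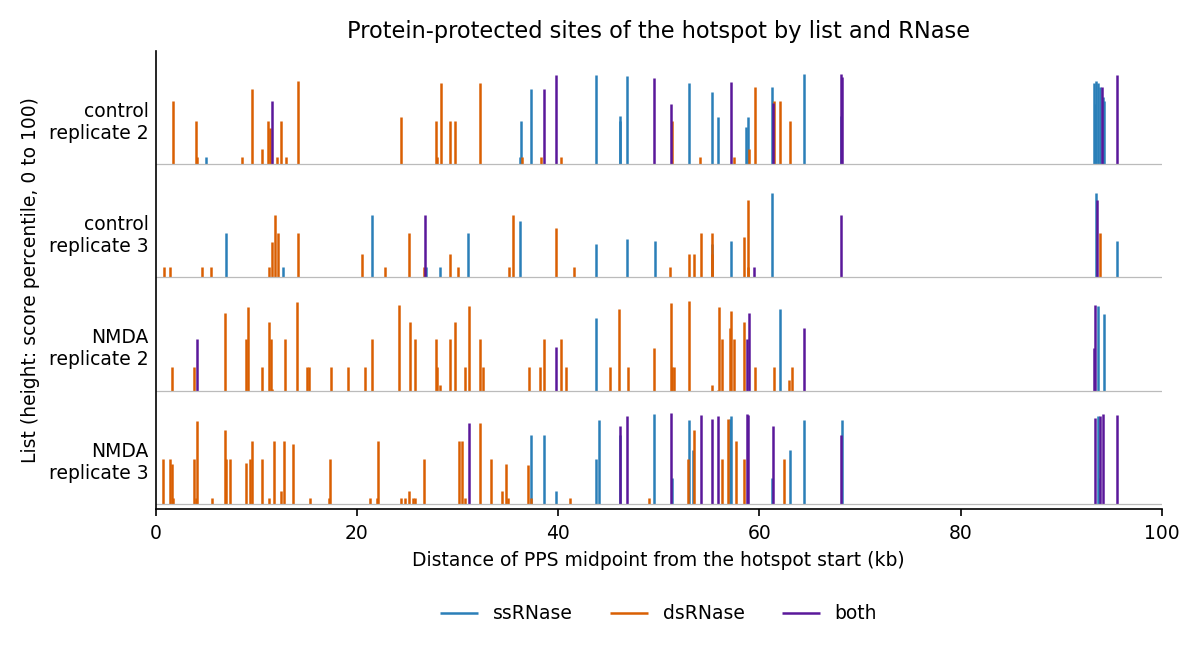
Each vertical line is 1 PPS, placed at the distance of its midpoint from the hotspot start in kb (horizontal axis), in the row of its list, with a height that gives its score percentile within the list and a colour that gives the RNase of its peaks (both: peaks of ssRNase and dsRNase in 1 PPS). PPS of dsRNase alone prevail in the first 35 kb, and the cluster beyond 90 kb holds high-scoring PPS with ssRNase peaks in all 4 lists.

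**Figure D4:**
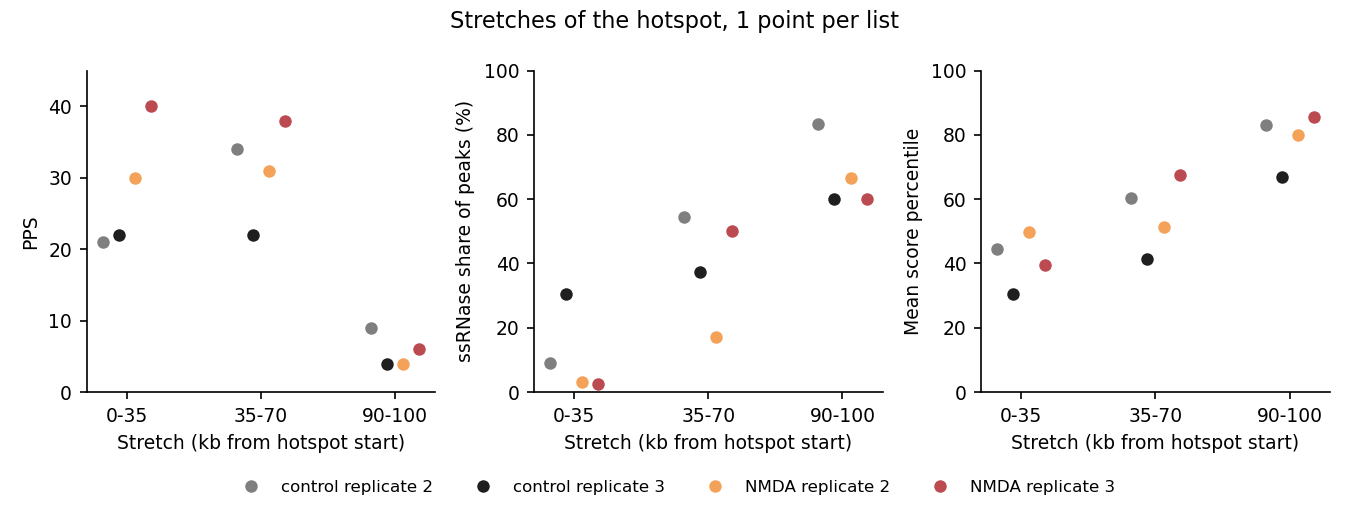
Number of PPS, ssRNase share of peaks in percent and mean score percentile (vertical axes of the 3 panels) in each stretch of the hotspot (horizontal axes), with 1 point per list. The ssRNase share of all lists pooled was 9.40%, 41.9% and 69.7% in the 3 stretches.

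To compare positions between lists, PPS that overlapped by at least 1 bp on the plus strand were joined into sites. Joining ran from PPS to PPS along a chain, so the lists counted at a site need not share a base. The hotspot held 123 sites, with 61 found in 1 list, 27 in 2, 21 in 3 and 14 in all 4 (11.4%). On the plus strand of chromosome 11 as a whole 7.61% of 2445 sites were in all 4 lists, and in the flanks 7.86% of 140. The window was chosen for its density of PPS, so nothing is read from this difference. Of the 61 sites in 1 list, 28 came from NMDA replicate 3, the list with the most PPS here, and 15, 12 and 6 from NMDA replicate 2, control replicate 3 and control replicate 2.

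The sites in all 4 lists were spread unevenly. The first 35 kb held 68 sites of which 1 was in all 4 lists, the part from 35 to 70 kb held 51 with 10 in all 4, and the last 10 kb held 4 with 3 in all 4. These 14 sites were wide, with a median of 155.5 bp and a range of 61 to 538 bp, against a median of 49 bp for sites in 1 list. A site that joins more PPS is wider by construction. Over the lists 12 of the 14 had peaks of both RNases, 1 had dsRNase peaks alone and 1 had ssRNase peaks alone.

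Of the sites in all 4 lists, the 4 with the highest score percentile in their lowest list were taken as leading by score. Of these, 3 lay side by side in the end cluster. The site at 34693285 to 34693527 (243 bp) had highest scores of 12.59, 13.5, 16.01 and 16.01, which were percentiles of 91.2, 93.3, 94.9 and 95 in the 4 lists. It held 7 ssRNase and 3 dsRNase peaks, and it was the only one of the 14 that stood above the percentile of 90 in every list. Its neighbour at 34693544 to 34693761 (218 bp) had scores of 11.7, 10.94, 15.21 and 18.42 from 5 ssRNase peaks and 1 dsRNase peak. The next site, 34693771 to 34694308 (538 bp), was the widest of the hotspot, with scores of 10.95, 6.82, 11.45 and 25.16 and 8 ssRNase against 4 dsRNase peaks. These 3 sites nearly adjoined one another. In the first of them the PPS of control replicate 3 (34693476 to 34693527) and of NMDA replicate 2 (34693285 to 34693446) did not overlap. In the third, those of control replicate 3 (34693816 to 34693871) and of NMDA replicate 2 (34694180 to 34694308) did not overlap either.

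The remaining one of the 4 sites leading by score was at 34658667 to 34658993 (327 bp), in the fullest step. Its highest scores were 6.87, 11.03, 11.49 and 31.61, and its lowest percentile was 51.8. It joined 9 PPS with 6 ssRNase and 8 dsRNase peaks.

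Of the other 10 sites in all 4 lists, 9 lay between 39 and 62 kb from the hotspot start. The site at 34651116 to 34651236 had scores of 8.02, 5.4, 17.35 and 75.63. These were percentile 66.1, 11.5 and 96.1 in the first 3 lists and the highest percentile of the hotspot in NMDA replicate 3. Its PPS of control replicate 3 (34651116 to 34651169) and of NMDA replicate 2 (34651217 to 34651236) did not overlap. The site at 34652991 to 34653080 lay at percentiles of 89.8, 26.2, 98.8 and 92.6, from ssRNase in control replicate 2 and NMDA replicate 3 and from dsRNase in the other lists. The site at 34657094 to 34657230 lay at percentiles of 90.8, 40.0, 88.1 and 97.4. Control replicate 3 had the lowest percentile in each of these 3 sites. At 34655254 to 34655346 the percentiles were 79, 49.0, 6.15 and 93.9, and there NMDA replicate 2 was lowest.

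Others of these sites ranked high in control replicate 2. The site at 34639758 to 34639821 lay at percentiles of 98.7, 54.6, 47.6 and 14.3, the one at 34646848 to 34646987 at 96.9, 42.3, 25.6 and 96.8, and the one at 34649449 to 34649619 at 94.7, 40.0, 46.7 and 98.9. In these 3 sites the RNase varied between the lists. In the last of them the PPS of control replicate 3 (34649587 to 34649619) and of NMDA replicate 2 (34649470 to 34649550) did not overlap. The same lists did not overlap in the site at 34661291 to 34661502, also counted in all 4 lists. There control replicate 3 covered 34661291 to 34661325 and NMDA replicate 2 covered 34661472 to 34661489. The site with dsRNase peaks alone was the one farthest upstream, at 34611153 to 34611360, with scores of 6.82, 5.4, 9.39 and 5.4 and a width of 208 bp. It was the only site in the first 35 kb counted in all 4 lists, but its 2 control lists shared no base. Control replicate 2 held PPS at 34611153 to 34611216 and 34611307 to 34611360. Control replicate 3 held 1 between them, at 34611250 to 34611294.

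The end cluster as a whole ran from 34693285 to 34695583, or 2299 bp, and held 23 PPS, 9, 4, 4 and 6 by list. Its last site, at 34695518 to 34695583, was a PPS of identical limits in control replicate 2 and NMDA replicate 3, with scores of 19.45 and 20.91 and peaks of both RNases. In control replicate 3 a PPS of 14 bp at 34695570 to 34695583 ended on the same base, and NMDA replicate 2 held none there.

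**Figure D5:**
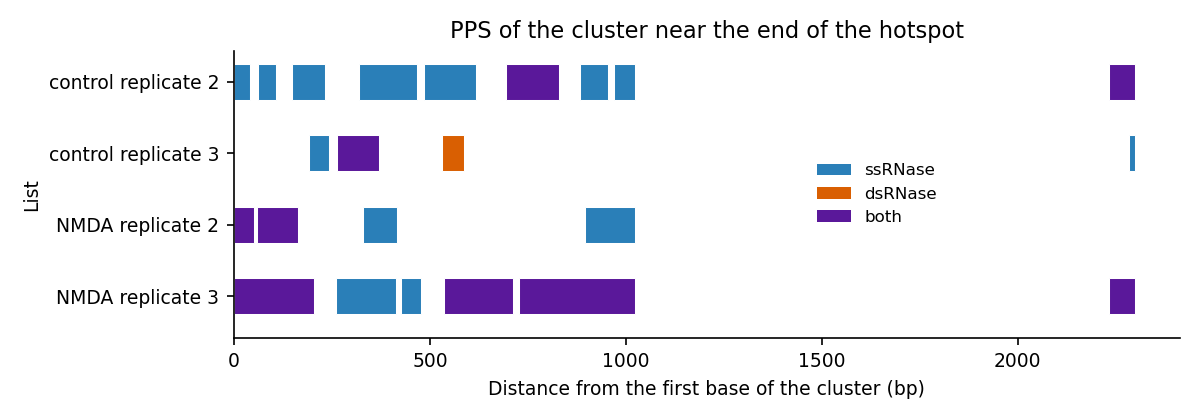
PPS of the end cluster drawn to scale as bars, against distance from the first base of the cluster in bp (horizontal axis), in the row of their list, with colours for the RNase of their peaks. PPS begin at the first base in 3 of 4 lists, and in 3 of 4 lists a PPS ends at the last base of the third site.

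Some PPS of different lists began or ended on the same base, although most edges were found in 1 list. The 261 PPS had 230 distinct first bases, of which 22 (9.57%) were used in at least 2 lists, 9 of them in 3 lists and 0 in all 4. They had 234 distinct last bases, of which 18 (7.69%) were used in at least 2 lists, 9 of them in 3. In the flanks 4.69% of first bases and 4.37% of last bases were shared, and on the plus strand of chromosome 11 4.81% and 5.68%. Since the window was chosen for its density of PPS, nothing is read from this difference. Of the 18 edges found in 3 lists, 17 lay more than 30 kb from the hotspot start, among them the first base 34693285 and the last bases 34694308 and 34695583. PPS identical in both edges made up 5 of 256 distinct PPS (1.95%), all in pairs of lists.

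The identical pairs did not always carry the same RNase. At 34661987 to 34662033 the PPS of NMDA replicate 2 came from ssRNase, at percentile 89.6 of its list, and that of control replicate 2 from dsRNase, at percentile 70.1. At 34643703 to 34643763, the site in all 4 lists with ssRNase peaks alone, control replicate 2 and NMDA replicate 3 had identical limits and percentiles of 98.1 and 49.2. At 34639758 to 34639821 the same lists had identical limits and percentiles of 98.7 and 14.3. In each of these pairs 1 list was a control list and the other an NMDA list. In these pairs the limits were identical while the ranks within the lists were not. At 34651116 to 34651236 the percentiles were 66.1 in control replicate 2 and 99.99 in NMDA replicate 3. At 34695518 to 34695583 the ranks of the same lists were close, at 98.3 and 97.7, with peaks of both RNases in each. Apart from 34661987 to 34662033, all identical pairs were of control replicate 2 and NMDA replicate 3. Those lists shared 15915 identical PPS over the series.

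The treatment comparison asked whether the PPS of the hotspot differed between NMDA and control lists. Depth is unknown and RNA level was not analysed, so numbers of PPS do not measure protein binding alone. Both NMDA lists held more PPS than both control lists, with 65 and 84 against 64 and 48, but the lowest NMDA count exceeded the highest control count by 1. The control mean was 56 ± 11.3 and the NMDA mean 74.5 ± 13.4 (SD, n = 2 lists each), a ratio of 1.33 (exact permutation p = 0.333). Per 10000 PPS of a list the values were 6.58 and 7.24 in control and 7.61 and 10.4 in NMDA, again without overlap. Per 100 PPS of the plus strand of chromosome 11 the values were 5.96 and 4.38 against 5.79 and 7.04, which overlapped (exact permutation p = 0.667).

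Across the genome 9485 stranded windows of 100 kb were fitted with limma, and the hotspot had a log2 difference (NMDA minus control) of 0.34 with a standard error of 0.29 on the log2(PPS per 10000 + 0.5) scale, with an adjusted p of 0.947. The levels of the 4 lists on that scale were 2.82, 2.95, 3.02 and 3.45. With a threshold of 0.05, limma called 0 of the 9485 windows (0%) after adjustment, and 280 would pass without adjustment. In 13.5% of windows the lower NMDA list exceeded the higher control list, so lack of overlap in that direction was common over these windows. They include windows in which lists share identical PPS. In a fit limited to 7 plus strands, that of chromosome 11 among them, the hotspot's log2 difference was 0.33 (limma adjusted p = 0.732). That fit called 0 of 938 windows, with 94 at an unadjusted p under 0.05. The difference rested on NMDA replicate 3: without it the log2 difference was 0.13, and without NMDA replicate 2 it was 0.56. With all 4 lists scaled to the plus strand of chromosome 11, the log2 difference of the hotspot was 0.30 (limma adjusted p = 0.963).

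None of the 13 steps of 5 kb that held at least 8 PPS passed the same test, and limma called 0 of 10603 such steps in the genome (0%), with 337 at an unadjusted p under 0.05. Among the 13 steps the largest positive difference was at 34630001 to 34635000, with 1, 2, 4 and 8 PPS. Its log2 difference was 0.79 (standard error 0.36, limma adjusted p = 0.988, unadjusted p = 0.0633). The largest negative difference among them was at 34610001 to 34615000, with 8, 6, 6 and 6 PPS. Its log2 difference was -0.16 (standard error 0.37, limma adjusted p = 0.988). Scaled to the plus strand of chromosome 11 these differences were 0.78 and -0.19 (limma adjusted p = 0.989 for both). With a filter of at least 4 PPS, steps left out above had larger differences. They were 0.88 at 34615001 to 34620000 (limma adjusted p = 0.941, unadjusted p = 0.0131) and -0.25 at 34665001 to 34670000 (limma adjusted p = 0.952). The NMDA lists lay above the control lists per 10000 PPS in 5 of the 13 steps, against 17.6% of all steps, and below them in 1, against 11% of all steps. Scaled to the plus strand of chromosome 11 the counts were 3 and 1. The share over all steps was not computed for that scaling, so nothing is read from these counts.

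In the first 35 kb the counts were 21 and 22 in control and 30 and 40 in NMDA, or 1.96% and 2.01% against 2.67% and 3.35% of the PPS on the plus strand of chromosome 11. Between 35 and 70 kb they were 34 and 22 against 31 and 38, and in the last 10 kb 9 and 4 against 4 and 6. By these counts the groups were apart in the first stretch and overlapped in the others. Per 10000 PPS of a list, control values from 35 to 70 kb were 3.49 and 3.32. NMDA values there were 3.63 and 4.70, so that stretch was narrowly apart as well. These stretches were delimited after the values had been seen, and the differences were not tested. On that scale 13.5% of windows and 17.6% of steps lacked overlap in this direction. For other stretches of 35 kb the share was not computed. The first stretch had the lowest mean score percentile, at 41.4, and nothing is read from its separation.

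Sites found in both lists of a group and in neither list of the other were few. There were 6 NMDA-specific sites (4.88% of 123) and 1 control-specific site (0.813%), against 6.43% and 2.14% of the 140 sites in the flanks and 3.15% and 2.70% of all sites on the plus strand of chromosome 11. The NMDA-specific share of the hotspot thus lay between those of the flanks and of the chromosome strand. The NMDA-specific sites with the highest score percentile in their lower list were at 34656277 to 34656333, with scores of 7.43 and 6.82, at 34608915 to 34609026, with 7.43 and 6.81, and at 34601597 to 34601684, with 5.61 and 6.21. The remaining 3 were at 34603827 to 34603869, 34625739 to 34625796 and 34630724 to 34630792, with scores between 5.4 and 7.43. All 6 came from dsRNase alone, and 5 of them lay in the first 35 kb. That stretch held 68 of the 123 sites, and 106 of its 117 peaks came from dsRNase, so nothing is read from these counts. The control-specific site, at 34636188 to 34636261, came from ssRNase with scores of 5.4 and 8.14. None of the 3 leading NMDA-specific sites reached the 60th percentile in either list, so these sites were of middling or low score within their lists.

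The ssRNase share of hotspot peaks was 46.2% and 36.5% in control and 15.3% and 32.0% in NMDA, means of 41.3% ± 6.80 and 23.7% ± 11.9 (SD, n = 2 lists each) that did not overlap (exact permutation p = 0.333). Over the rest of the plus strand of chromosome 11 the share was 43.7%, 42.6%, 18.9% and 44.6%, so the low value of NMDA replicate 2 was a feature of that list on the whole strand. Without NMDA replicate 2 the difference of -17.7 points became -9.31. The part of that list's RNase balance in the result was not tested further.

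Counted per RNase, the hotspot held 42, 33, 61 and 70 dsRNase peaks, which were 5.91%, 4.87%, 6.10% and 8.71% of the dsRNase peaks on the plus strand of chromosome 11. For ssRNase it held 36, 19, 11 and 33 peaks, or 6.49%, 3.82%, 4.78% and 5.30%. The groups overlapped for ssRNase and were narrowly apart for dsRNase, at 5.91% in control replicate 2 against 6.10% in NMDA replicate 2. How often other windows are apart in this measure was not computed. For PPS holding a dsRNase peak the log2 difference of the hotspot was 0.35 (standard error 0.63, limma adjusted p = 0.998). No test of the difference between the RNases was made. Control PPS had median lengths of 57 and 43.5 bp, and NMDA PPS of 58 and 51 bp (means 50.2 ± 9.55 and 54.5 ± 4.95 bp, SD, n = 2 lists each, exact permutation p = 0.667). Covered sequence, at 4217 and 2171 bp against 3832 and 5522 bp, overlapped between the groups as well (exact permutation p = 0.667).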

How the data were processed

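Per the labels, each list of PPS was called at a false discovery rate of 5%. The submitters' processing notes name cutadapt 1.2.1, TopHat2 2.0.10 and rn6, and libraries were read as 50 bases from 1 end. The deposited lists give start, end, strand, peak names with RNase and a score per peak with no stated scale or read count. A PPS took its highest peak score. The deposited score was compared between lists only as a rank within each list. Positions are printed 1-based.

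PPS were counted by midpoint in stranded windows of 100 kb and steps of 5 kb holding at least 8 PPS over the 4 lists. log2(PPS per 10000 + 0.5) was modelled in R 4.3.3 by limma 3.58.1 (lmFit, eBayes with trend, Benjamini-Hochberg adjustment over all windows or steps, threshold 0.05). The code was checked on simulated data. Single values were compared by exact two-sided permutation over lists. Groups and replicate numbers came from sample titles.

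Named regions were the 4 sites in all lists with the highest lowest percentile, the 3 leading sites specific to each group, the 3 fullest and the empty steps, the longest PPS and the steps with the largest differences. Others, among them the identical pairs, the step with 0 control PPS and the end cluster, were chosen after their values were seen. The members and lists were chosen with earlier results of these data known. Alternatives covered pseudocount, filter, scaling, strand, 7 plus strands alone, score, RNase, merging, thinning, flanks, step edges, overlap, replicate block and leaving out lists. Structure profiles, mRNA sequencing and reads were not analysed here.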

Additional observations from a re-analysis of the deposited data

How the results depend on the processing

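The 14 sites in all 4 lists became 3 when each list was limited to PPS above its median score, and 13 with an overlap of at least 20 bp. The log2 difference of the hotspot between NMDA and control ranged from 0.13 to 0.56 when each list was left out in turn and turned to -0.12 for PPS holding an ssRNase peak. Its limma adjusted p ranged from 0.732 to 0.999 over the alternatives, and 0 steps of the hotspot were called in any of the alternatives run for them. Against the flanks, the difference in length of PPS with 1 peak was -4.0 bp with means in place of medians, -5.38 bp for ssRNase peaks alone and between -1.17 and 3.5 bp when lists were left out. The difference in ssRNase share was 0.92 points against the flank before the hotspot alone. The difference in score percentile was -0.61 points with flanks of 500 kb, -1.25 against the flank after the hotspot alone, and between -0.97 and 3.74 when lists were left out. The difference in median length between treatments ranged from -2.5 to 11 bp when lists were left out. The causes were not tested.

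No label says that equal replicate numbers mark a shared culture or batch, and 2 pairs of lists do not settle it. Deviations of same-numbered lists correlated at 0.0054 over 9485 windows, where differently numbered lists share up to 15915 identical PPS, and at 0.27 over 121 windows of the plus strand of chromosome 11, where pairs share at most 12. These correlations do not decide the question. Since no label states a pairing, the lists were not treated as paired in the main comparisons. With the replicate number as a block (replicate block) the log2 difference of the hotspot was 0.34 (limma adjusted p = 0.998), the length difference 4.25 bp and the difference in ssRNase share -17.7 points, and 0 hotspot steps were called. Over the genome that block gave 2 windows and 56 steps called, and leaving out control replicate 3 gave 280 and 357, against 0 and 0. Windows with at least 1 PPS, and PPS above each list's median score, gave 2 windows each. With 2 lists per group and unknown depth, only large differences could pass a test.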
